A study of Mus musculus with 2 samples.

Results

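The Hox genes of the 4 mouse Hox clusters were examined for signal from the transcription factor CREM in testicular germ cells. They were chosen by name alone: every probe whose gene name on the array is Hoxa, Hoxb, Hoxc or Hoxd followed by a number was taken. This gave 33 genes, of 17303 genes with at least 1 window of probes, and 1364 probes of 474380. Immunoprecipitated chromatin was hybridised to promoter arrays (ChIP-chip). On each array, DNA precipitated with an antibody against CREM (Cy5) was set against DNA precipitated with goat IgG (Cy3), the control antibody. Both precipitates came from adult C57BL/6 males, with no mutation or treatment named in the labels. Germ cells were pooled from the testes of 5 mice and fixed in 1% formaldehyde for 10 min. The 2 arrays carry different probes and share none, so they are not replicates, and each is a group of 1 sample. Array 1 holds the Hoxa genes (10, on chromosome 6) and the Hoxd genes (8, on chromosome 2). Array 2 holds the Hoxb genes (7, on chromosome 11) and the Hoxc genes (8, on chromosome 15). Hoxa7, Hoxb2, Hoxb7, Hoxb8, Hoxc4 and Hoxd8 were not analysed here. With nothing repeated, there is no replicate error and no test, and every comparison is a description of these hybridisations. The precipitates held DNA of all germ cell stages together, so strong binding in a few cells and weak binding in many cannot be told apart, and a DNA array holds no transcripts with which to check the germ cell label.

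Hox genes encode homeodomain transcription factors that give cells their position along the head-to-tail axis and along the limbs. They lie in 4 clusters in the order in which their domains end along the body: genes with low numbers act towards the head, and genes with high numbers act in the trunk, tail, distal limb and genital tract. In most adult tissues they are held silent by Polycomb complexes, which place repressive marks on histone H3, and their CpG-rich clusters are unusually free of repeats. CREM is a member of the CREB family that binds the cAMP response element and activates genes of haploid male germ cells.

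A probe's value was log2 of the CREM signal over the IgG signal, centred on the median probe of its array. A window was 3 neighbouring probes whose starts lay at most 500 bp apart, and its value was their median. Neighbouring windows overlapped and shared probes, so counts of windows are not counts of separate places. A gene was called on the CREM side (towards CREM) when its highest window reached 1, which is 2-fold, and on the IgG side (towards IgG) when its lowest window reached -1. The IgG side shows what the same measurement gives where the control antibody had the stronger signal. Of the Hox probes, 731 on array 1 and 591 on array 2 passed the filters and formed 1233 windows, between 22 and 55 per gene. Control probes with at least 12 spots on an array had a median spot-to-spot SD of 0.27 on array 1 and 0.33 on array 2 (log2 ratio), the measure of error these arrays allow.

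A smaller share of the Hox genes than of all genes was called on the CREM side, and a larger share was called on the IgG side. Of 33 Hox genes, 7 (21.2%) were called on the CREM side, where 34.5% of all genes were called. On the IgG side 21 Hox genes (63.6%) were called, where 33.7% of all genes were. Genes with more windows have more chances to reach either threshold, and Hox genes had a median of 37 windows against 19 for all genes. Among the 6886 genes with 22 to 55 windows, a comparison chosen after the values were seen, 39.2% were called towards CREM and 46.8% towards IgG. The share of Hox genes lay below this background towards CREM and above it towards IgG. Hoxa2, Hoxb6 and Hoxc12, 3 of the Hox genes (9.09%), were called on both sides, where 12.1% of all genes were, and 8 (24.2%) on neither, where 43.9% of all genes were. With normexp background correction the difference on the IgG side turned round, with 1 Hox gene (3.03%) called, against 3.70% of all genes. The median highest window was 0.67 for Hox genes, against 0.77 for all genes and 0.86 for genes with 22 to 55 windows. The median lowest window was -1.23 for Hox genes, against -0.76 for all genes and -0.95 for genes with 22 to 55 windows.

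**Figure D1:**
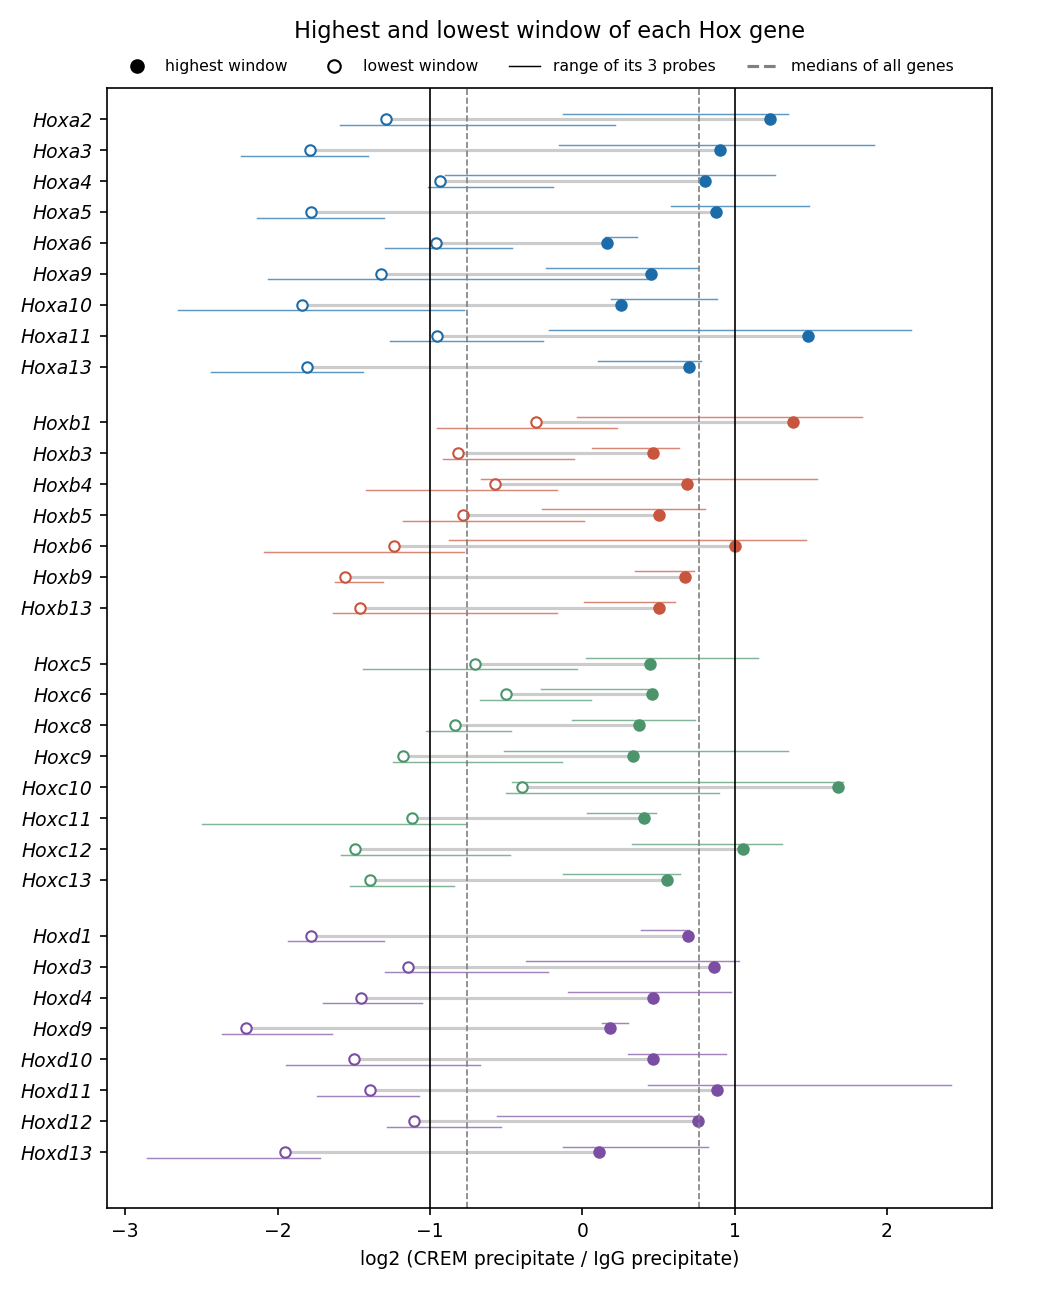
Highest window (filled circle) and lowest window (open circle) of 32 Hox genes, as log2 of the CREM over the IgG signal (horizontal axis), grouped by cluster, with thin lines for the range of the 3 probes of the window and dashed lines at the medians of all genes (0.77 and -0.76). The filled circle reaches 1 in 6 of these genes and the open circle reaches -1 in 21 genes, among them all 8 Hoxd genes.

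Counted by windows, 17 Hox windows (1.38%) lay at 1 or more, against 5.99% of all windows. At -1 or less lay 72 Hox windows (5.84%), against 4.56% of all windows. The shortfall on the CREM side was seen on both arrays: 5 of 692 Hox windows on array 1 (0.72%, against 5.66% of all), and 12 of 541 on array 2 (2.22%, against 6.32% of all). The excess on the IgG side was seen on array 1, with 58 Hox windows (8.38%, against 4.61% of all). On array 2 it was not, with 14 Hox windows (2.59%, against 4.51% of all). In single probes the median Hox probe lay at -0.14 on array 1 and -0.09 on array 2, against 0 for all probes. This shift depended on the background correction: with normexp the medians were -0.023 and -0.0001.

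Hoxc10, which patterns the lumbar spinal cord and the hindlimb, had the highest window of all Hox genes, at 1.68, and was the Hox gene whose CREM signal did not depend on dim probes. Its highest window lay at chr15:102798000-102798556 (mm9). The 3 probes of that window read 282, 1184 and 1803 in the CREM precipitate, against 382, 365 and 543 in the IgG precipitate (processed signal). Their log2 ratios were -0.46, 1.68 and 1.71, so 2 of the 3 probes were 3-fold or more higher in the CREM precipitate and the other was not. In both channels all 3 probes were well above background. The next probe along the chromosome, 673 bp from the start of the window, read 3802 in the CREM precipitate and 1638 in the IgG precipitate, a log2 ratio of 1.20.

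The probe sequences of the Hoxc10 window are shown because it is the CREM-side Hox window with a full set of bright probes. They are written 5′ to 3′ as on the array, with each CG dinucleotide in capitals.
Hoxc10 high 1: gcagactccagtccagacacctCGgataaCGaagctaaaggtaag
Hoxc10 high 2: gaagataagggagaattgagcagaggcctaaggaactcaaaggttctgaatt
Hoxc10 high 3: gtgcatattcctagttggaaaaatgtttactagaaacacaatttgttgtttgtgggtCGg

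The probes with the higher ratios hold 0 and 1 CG, and the probe with the lowest ratio holds 2. A further Hoxc10 region of 4 windows at 1 or more lay at chr15:102796181-102797125, with windows up to 1.40. Its 6 probes read 346, 2384, 2291, 1679, 1152 and 332 in the CREM precipitate, against 57.9, 1871, 996, 239, 432 and 366 in the IgG precipitate. The probes reading 2291, 1679 and 1152 had ratios of 1.18, 2.79 and 1.40. The probe reading 1679 was not well above background in the IgG precipitate, which makes its CREM signal at least 5.76-fold higher. Hoxc10 was also high as a whole: the median over its 49 windows was 0.39, against -0.11 over all Hox windows, and its lowest window, at -0.40, stayed far from the IgG threshold.

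The other 6 genes on the CREM side had windows that rested on probes with little signal in the IgG precipitate. In each of their highest windows, 2 of the 3 probes were not well above background there, so that their ratio has only a bound. The bound sets such a probe to the lowest IgG signal that was well above background, 306 on array 1 and 288 on array 2, or to its own signal where that is higher. At that bound 1 of the 7 genes, Hoxc10, stayed at 1 or more, 2 lay between 0 and 1, and 4 lay below 0 and have no fold.

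Hoxa11, needed for the forearm skeleton and the uterine lining, had its highest window, at 1.48, at chr6:52199322-52199651. Its 3 probes read 393, 1155 and 429 in the CREM precipitate, against 138, 1321 and 94.4 in the IgG precipitate. The bright middle probe was level (-0.22), and the window was at least 1.27-fold higher in the CREM precipitate. Hoxb1, which gives the hindbrain segment of the facial motor neurons its identity, had a window at 1.38 with CREM signals of 582, 173 and 217 and IgG signals of 589, 65.3 and 59.9. Again the brightest probe was level, at -0.03, and the 2 dim probes made the value. Hoxa2, which sets the identity of the second branchial arch, had a window at 1.23, with CREM signals of 709, 440 and 251 against IgG signals of 760, 170 and 105. There too the probe with the most IgG signal had a ratio below 0, at -0.12. Hoxc12, a gene of the posterior trunk, had a window at 1.05, with CREM signals of 2169, 687 and 123 against IgG signals of 1707, 273 and 58.5, and was at least 1.25-fold higher. Hoxb6, which acts in the thoracic region, just reached the threshold at 1.00, with CREM signals of 127, 252 and 1340 against IgG signals of 230, 89.8 and 659.

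Just below the threshold lay Hoxa3, at 0.90, Hoxd11, at 0.89, and Hoxa5, at 0.88. Of the 17 Hox windows on the CREM side, 2 (11.8%) had 3 bright probes, each well above background in both channels. Of all windows on the CREM side, 37.2% did. With only such probes used, 1 Hox gene of 33, Hoxc10, was called on the CREM side (3.03%), against 20.9% of all genes. In the authors' deposited values Hoxc10 was likewise the Hox gene called on the CREM side, and 17.3% of all genes were. Across the 13 ways of computing the windows that were tried, Hoxc10 was called on the CREM side in each, with values between 1.22 and 1.79. Such constant calls were made for 8.79% of all genes, and 1 of 33 Hox genes is below that share.

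**Figure D2:**
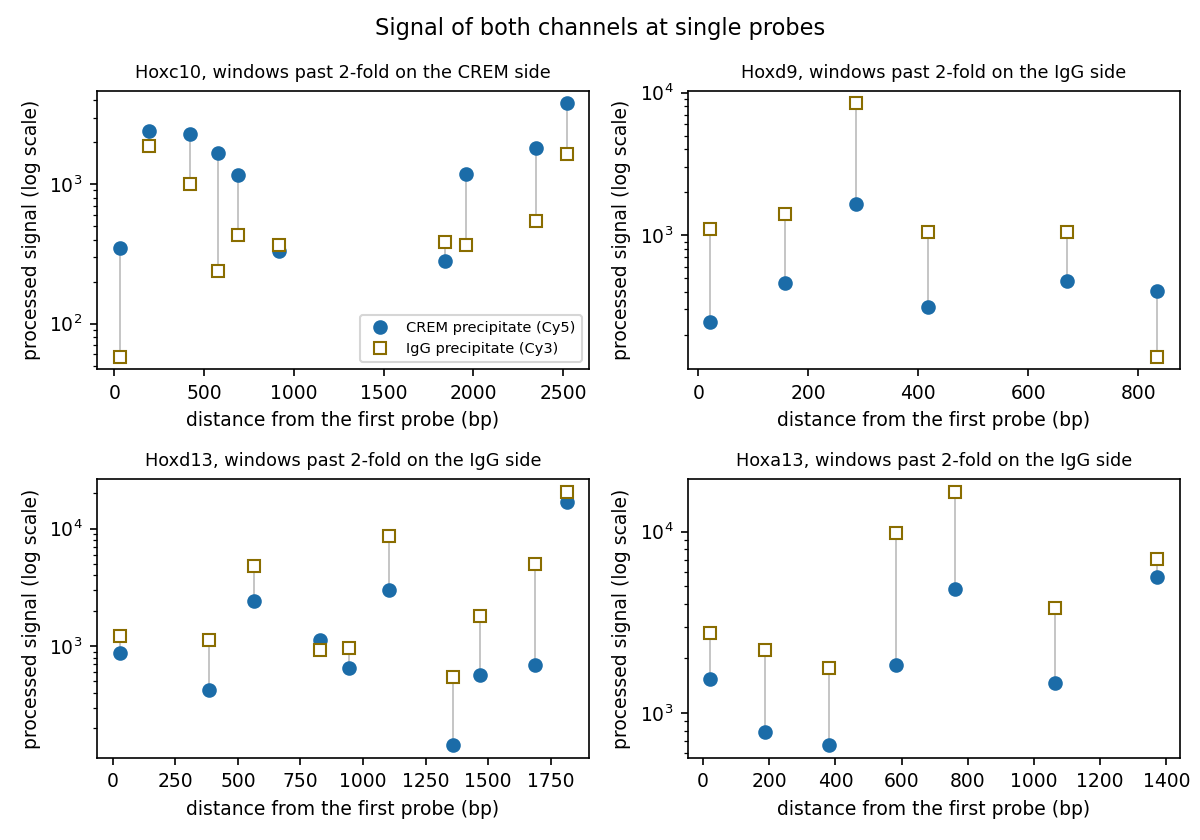
Processed signal of the CREM precipitate (filled circles) and of the IgG precipitate (open squares), on a logarithmic axis, at each probe of the windows past 2-fold in Hoxc10 (CREM side), Hoxd9, Hoxd13 and Hoxa13 (IgG side), by distance from the first probe in bp. In Hoxc10 the CREM signal is higher at most probes, with IgG signals down to 57.9, and in the other genes the IgG signal is higher over several neighbouring probes and reaches 20656.

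The IgG side of the Hox genes was made of bright probes. Of the 72 Hox windows at -1 or less, 59 (81.9%) had 3 bright probes by the same measure, against 81.5% of all such windows. The lowest Hox window of all, at -2.21, lay in Hoxd9, a gene of the limb and lumbar region, at chr2:74536131-74536439. Its 3 probes read 244, 460 and 1664 in the CREM precipitate, against 1108, 1415 and 8438 in the IgG precipitate, and the log2 ratios were -2.21, -1.65 and -2.37. All 3 probes were thus more than 3-fold brighter in the IgG precipitate. Hoxd13, which shapes the digits and the genital tract, had its lowest window, at -1.95, at chr2:74506140-74506514. Its probes read 143, 563 and 697 in the CREM precipitate, against 545, 1821 and 4959 in the IgG precipitate, with ratios between -2.85 and -1.72. Its highest window, at 0.11, was the lowest of the highest windows among the 33 genes. Hoxa13, the paralogue of Hoxd13 with which it acts in digits and genitalia, had its lowest window, at -1.81, at chr6:52210086-52210512. The CREM precipitate gave 666, 1845 and 4811 there, against 1778, 9805 and 16584 in the IgG precipitate. Its region on the IgG side ran over 7 probes and 1396 bp, all of them below 0.

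The sequences of these 3 windows are shown as examples of low windows in which every probe was well above background in both dyes, to be set beside those of Hoxc10. Each is written 5′ to 3′ as on the array, with each CG dinucleotide in capitals.
Hoxd9 low 1: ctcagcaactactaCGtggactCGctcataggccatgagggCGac
Hoxd9 low 2: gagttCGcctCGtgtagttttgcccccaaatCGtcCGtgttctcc
Hoxd9 low 3: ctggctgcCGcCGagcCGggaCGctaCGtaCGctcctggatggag
Hoxd13 low 1: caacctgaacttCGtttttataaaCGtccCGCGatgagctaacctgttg
Hoxd13 low 2: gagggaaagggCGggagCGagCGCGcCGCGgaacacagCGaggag
Hoxd13 low 3: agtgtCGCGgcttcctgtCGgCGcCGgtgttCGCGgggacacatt
Hoxa13 low 1: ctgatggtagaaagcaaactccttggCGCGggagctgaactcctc
Hoxa13 low 2: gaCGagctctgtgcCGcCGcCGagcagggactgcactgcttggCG
Hoxa13 low 3: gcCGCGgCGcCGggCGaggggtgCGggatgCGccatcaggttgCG

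The 3 probes together hold 13 CG in Hoxd9, 18 in Hoxd13 and 15 in Hoxa13, against 3 in the Hoxc10 window. Their mean GC was 61.5%, 61.6% and 68.9%, against 43.4% in the Hoxc10 window. Every probe that could be placed on a RefSeq promoter of a Hox gene (22 probes) was written in the direction of the plus strand.

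The remaining low windows by cluster followed the same form. In Hoxa10, a gene of the uterus and the lumbar spine, the lowest window lay at -1.84. Its probes read 6903, 97.9 and 1398 in the CREM precipitate, against 11613, 607 and 4926 in the IgG precipitate, the middle probe being not well above background in the CREM precipitate. In Hoxb9, a gene of the rib-bearing trunk, the lowest window lay at -1.55, with CREM signals of 1773, 747 and 374 against IgG signals of 4340, 2269 and 1084. The 3 ratios of Hoxb9 lay close together, between -1.62 and -1.31. In Hoxb13, known from the prostate, the lowest window lay at -1.46, with CREM signals of 174, 1261 and 189 against IgG signals of 472, 1398 and 582. In Hoxc12 the lowest window lay at -1.49, with CREM signals of 2398, 1230 and 168 against IgG signals of 3286, 3635 and 468. In Hoxc13, needed for hair and nails, it lay at -1.39, with CREM signals of 1136, 289 and 516 against IgG signals of 3220, 748 and 911. In all 5 of these genes every probe of the window was brighter in the IgG precipitate. The genes just inside the IgG threshold were Hoxd12, at -1.11, and Hoxc11, at -1.12. Just outside it lay Hoxa6, at -0.96, and Hoxa11, at -0.95.

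Windows past a threshold that shared a probe were joined into regions. The 17 windows on the CREM side formed 8 regions in 7 genes, with lengths of 330 to 945 bp. The 72 windows on the IgG side formed 27 regions in 21 genes, with lengths of 291 to 1845 bp. The longest region on the IgG side lay in Hoxd11, a gene of the forearm skeleton, at chr2:74519868-74521712. Hoxa13 (1396 bp) and Hoxa5 (1334 bp), a gene of the lung and airway, followed. The 3 genes called on both sides held their regions next to each other: in Hoxa2 they overlapped by a probe (gap of -47 bp), and in Hoxb6 and Hoxc12 the gaps were 224 and 391 bp. In each the region on the CREM side was the poorer in GC, with a mean of 39.2% against 52.4% for the IgG side in Hoxa2, 47.4% against 55.6% in Hoxb6, and 37.9% against 56.7% in Hoxc12.

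Along the Hoxa cluster, 3 of 10 genes were called towards CREM, Hoxa2 and Hoxa11 among them, and 6 towards IgG. On array 1, 33.3% of all genes were called towards CREM and 34.4% towards IgG. Of the 398 windows of the Hoxa cluster, 5 (1.26%) lay at 1 or more and 24 (6.03%) at -1 or less. Of all windows of array 1, 5.66% and 4.61% did. The lowest windows were -1.84 in Hoxa10, -1.81 in Hoxa13, -1.79 in Hoxa3, which is needed for the thymus and parathyroid, -1.78 in Hoxa5, -1.32 in Hoxa9, a gene of blood stem cells, and -1.29 in Hoxa2. The highest windows of the genes called on the IgG side alone were 0.90 in Hoxa3, 0.88 in Hoxa5, 0.70 in Hoxa13, 0.45 in Hoxa9 and 0.26 in Hoxa10. Hoxa4 and Hoxa6 reached neither threshold, with windows between -0.93 and 0.81 in Hoxa4 and between -0.96 and 0.16 in Hoxa6. Probes named Hoxa3 run over a span that includes that of Hoxa4, so the 2 genes share part of their region.

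Along the Hoxd cluster, all 8 genes were called on the IgG side and 0 on the CREM side. Of its 294 windows, 34 (11.6%) lay at -1 or less and 0 lay at 1 or more, against 4.61% and 5.66% of all windows of array 1. After Hoxd9 and Hoxd13, the lowest windows were -1.78 in Hoxd1, a gene of the anterior end of the cluster that acts in sensory neurons, -1.496 in Hoxd10, which acts in lumbar motor neurons, and -1.46 in Hoxd4, which patterns the cervical vertebrae. Hoxd11 followed at -1.39, Hoxd3, which shapes the atlas, at -1.15, and Hoxd12, a digit gene, at -1.11. The highest windows of this cluster were 0.89 in Hoxd11 and 0.86 in Hoxd3, followed by 0.76 in Hoxd12, 0.69 in Hoxd1, and 0.46 in both Hoxd4 and Hoxd10. Hoxd9 (0.19) and Hoxd13 (0.11), the genes with the lowest windows, also had the smallest highest windows of the cluster. In Hoxd11 the 3 probes read 491, 2238 and 470 in the CREM precipitate, against 90.0, 1634 and 250 in the IgG precipitate, 2 of the IgG signals being not well above background. In Hoxd3 they read 639, 745 and 548 in the CREM precipitate, against 811, 403 and 264 in the IgG precipitate.

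On array 2, 35.6% of all genes were called towards CREM and 32.9% towards IgG. Of all its windows, 6.32% lay at 1 or more and 4.51% at -1 or less. In the Hoxb cluster 2 of 7 genes were called towards CREM (Hoxb1 and Hoxb6) and 3 towards IgG (Hoxb6, Hoxb9 and Hoxb13), with 4 of 256 windows past each threshold. Hoxb3, Hoxb4, which is known for expanding blood stem cells, and Hoxb5, a gene of the enteric nervous system, were called on neither side, with lowest windows of -0.82, -0.57 and -0.78 and highest windows of 0.47, 0.69 and 0.50. Of all 33 genes Hoxb1 came least far down, with a lowest window of -0.30. In the Hoxc cluster 2 of 8 genes were called towards CREM (Hoxc10 and Hoxc12) and 4 towards IgG (Hoxc9, Hoxc11, Hoxc12 and Hoxc13), with 8 and 10 of 285 windows. Hoxc9, which defines thoracic motor neurons, reached -1.17 and Hoxc11, a hindlimb gene, -1.12. Hoxc5, Hoxc6 and Hoxc8, genes of the neck, forelimb level and thorax, were called on neither side, with lowest windows of -0.71, -0.497 and -0.84 and highest windows of 0.44, 0.46 and 0.37. The highest windows of the genes called on the IgG side alone were 0.67 in Hoxb9, 0.50 in Hoxb13, 0.34 in Hoxc9, 0.40 in Hoxc11 and 0.56 in Hoxc13, all below the median of all genes.

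**Figure D3:**
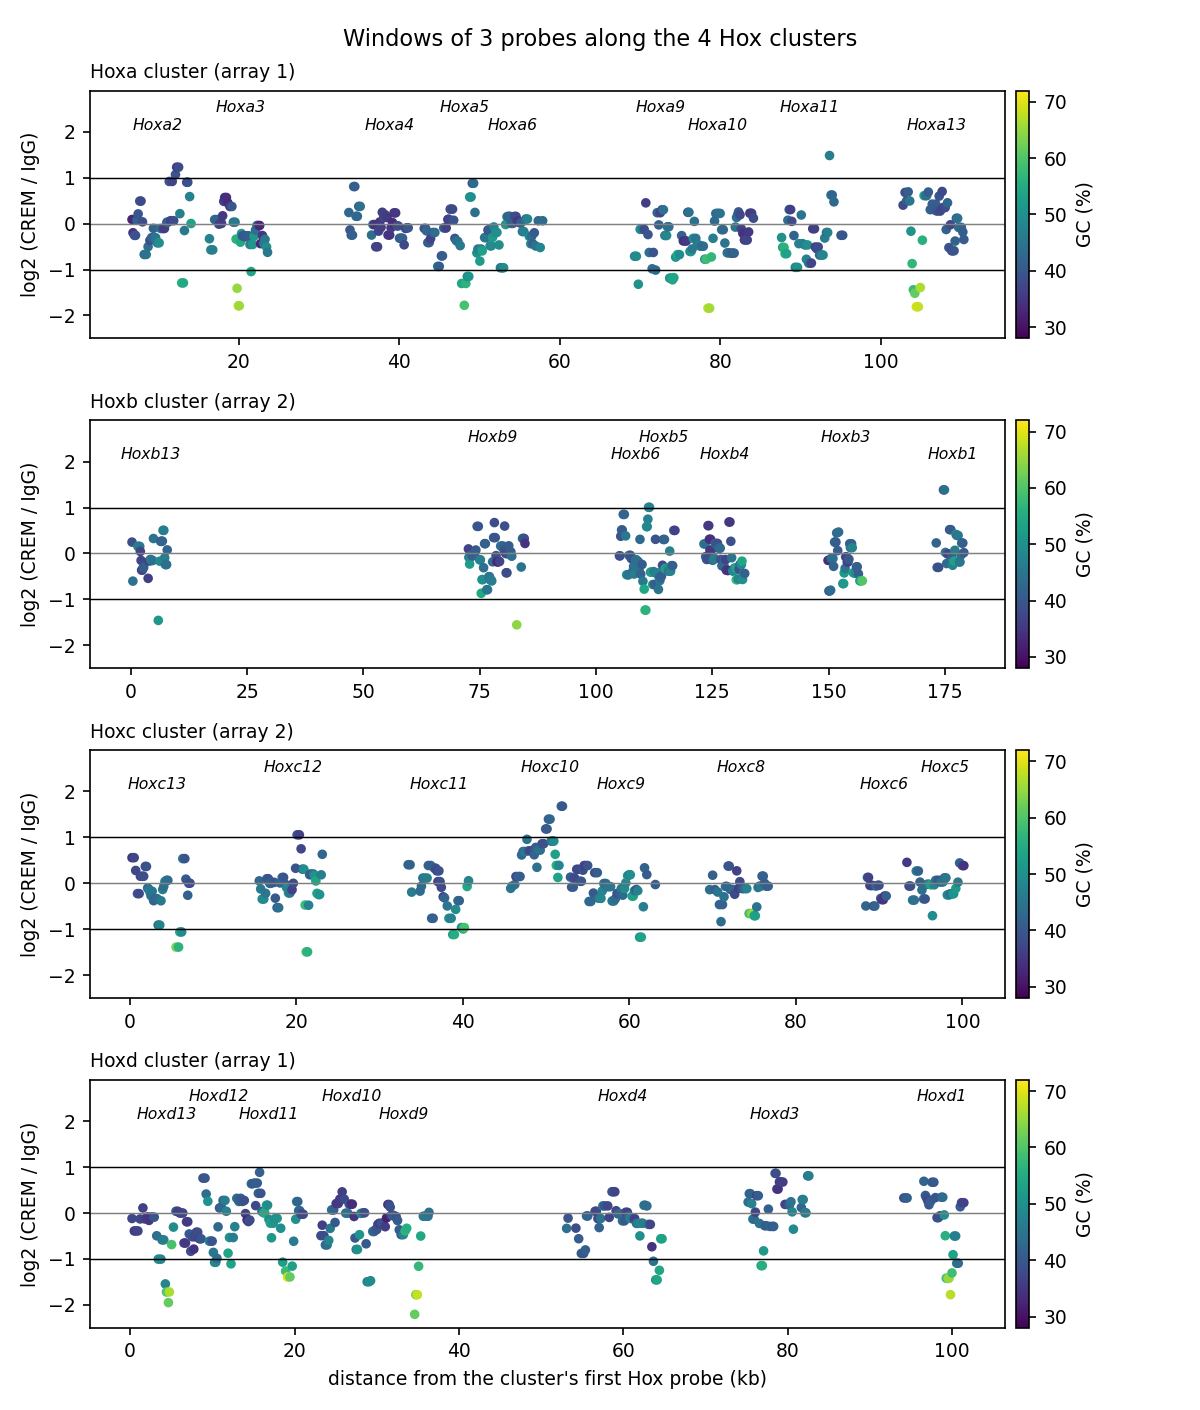
Value of each window of 3 probes (log2 of the CREM over the IgG signal) along each Hox cluster, by distance in kb from the first Hox probe of the cluster, coloured by the mean GC content of the probes (scale on the right). The low points are mostly of high GC content, the windows at 1 or more of Hoxc10 stand together in the Hoxc cluster (1 Hoxa gene is not drawn), and the Hoxd cluster holds 0 windows at 1 or more and 34 at -1 or less.

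Ordered by paralogue number, nearly all posterior genes (9 to 13) were called on the IgG side. Of 16 posterior genes, 14 (87.5%) were called on the IgG side, against 33.7% of all genes and 46.8% of those with 22 to 55 windows, the exceptions being Hoxc10 and Hoxa11, which had the 2 highest windows of all Hox genes. Of 10 central genes (4 to 8), 3 (30.0%) were called on the IgG side and 1 (10.0%) on the CREM side. This IgG-side share was near that of all genes and below the 46.8% of genes with 22 to 55 windows. Of 7 anterior genes (1 to 3), 4 (57.1%) were called on the IgG side and 3 (42.9%) on the CREM side. Among posterior genes 3 (18.8%) were called on the CREM side. On that side 34.5% of all genes were called, and 39.2% of those with 22 to 55 windows. The median lowest window was -1.42 in posterior genes, -0.88 in central genes and -1.15 in anterior genes. The lowest windows differed in GC between these classes, with a median of 56.3% in posterior, 47.4% in central and 56.3% in anterior genes. After removal of the median ratio of each class of GC and CpG number, 3 of 16 posterior, 2 of 10 central and 0 of 7 anterior genes reached -1, against 9.26% of all genes, so the higher posterior count was not kept. By paralogue group, all 4 genes of group 13 and all 4 of group 9 were called on the IgG side and none of them on the CREM side. The lowest windows of group 13 lay at -1.95 in Hoxd13, -1.81 in Hoxa13, -1.46 in Hoxb13 and -1.39 in Hoxc13.

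Hox windows on the 2 sides differed in base composition. Those on the CREM side had a mean GC of 41.4% and a median of 2 CpG per window, against 56.3% and 8 CpG in those on the IgG side. The 1144 Hox windows between the thresholds, with 42.7% and 2 CpG, were close to those on the CREM side. The same held for all windows of the arrays, with 41.0% GC at 1 or more and 58.5% at -1 or less, so the ratio moved with base composition across the arrays, and the part of base composition in the Hox result was not tested. Where GC was 60% or more, 20 of 21 Hox windows of array 1 (95.2%) lay at -1 or less, against 65.9% of other windows. The Hox median was -1.78, against -1.21 for other windows. Neighbouring windows share probes, so these 21 are not separate places. Between 55 and 60% GC, 9 of 22 Hox windows of array 1 (40.9%) lay at -1 or less, against 31.5% of other windows. The medians of this class were close, at -0.81 and -0.74. Between 50 and 55% GC, 16 of 62 Hox windows of array 1 (25.8%) lay at -1 or less, against 9.74% of other windows. On array 2 the 5 Hox windows of 60% GC or more had a median of -0.66, against -1.16 for other windows, and 2 of them lay at -1 or less. Between 55 and 60% GC, the 15 Hox windows of array 2 had a median of -0.96, against -0.65 for other windows, and 40.0% of them lay at -1 or less, against 27.9%. Between 50 and 55% GC, 5 of 40 (12.5%) lay there, against 8.59% of other windows. The classes of array 2, with few Hox windows each, thus did not all go one way.

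**Figure D4:**
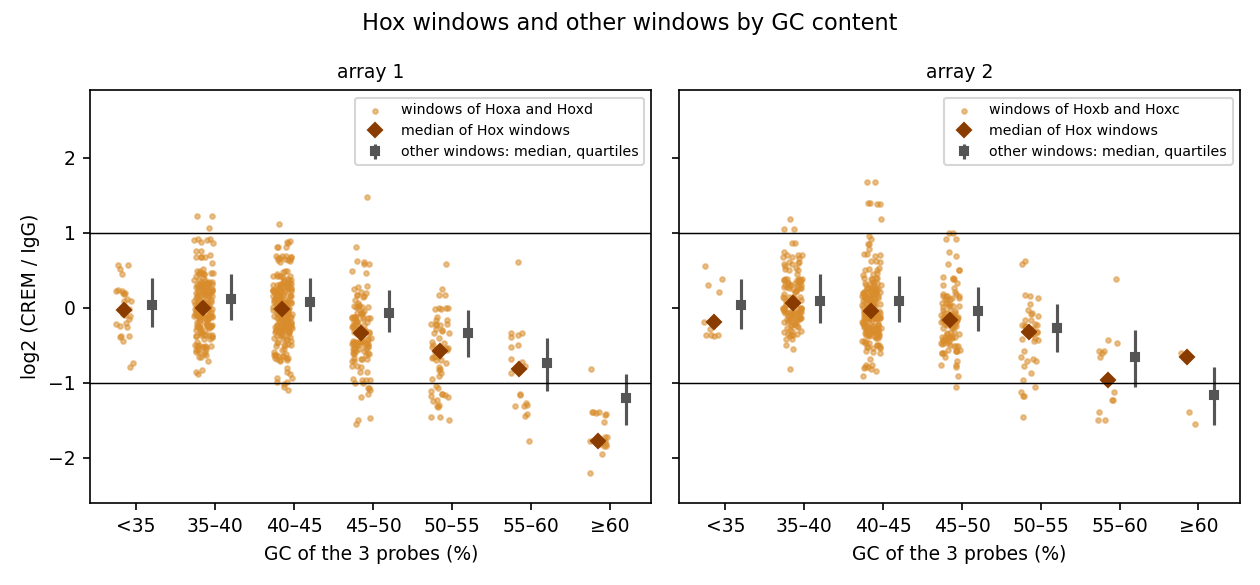
Window values (log2 of the CREM over the IgG signal) by class of GC content of the 3 probes, for array 1 (Hoxa and Hoxd) and array 2 (Hoxb and Hoxc), with each Hox window as a dot, the median of Hox windows as a diamond, and the median and quartiles of all other windows as a square with bars. Medians fall with GC in Hox and other windows alike, and on array 1 the Hox median lies at -1.78 against -1.21 in the class of 60% or more.

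Hox windows were set beside other windows of the same array, GC class and CpG class. They were lower by a median of 0.18 on array 1 (-0.18) and 0.12 on array 2 (-0.12). With normexp background correction these differences were -0.029 and -0.034. Windows with 6 or more CpG formed 1 class, and Hox windows on the IgG side had a median of 8 CpG and up to 20. Within that class windows were matched by GC but not by CpG number. At 1 or more lay 1.38% of Hox windows, against 7.19% of windows of like composition. At -1 or less lay 5.84% of Hox windows, against 4.06% of windows of like composition. By array, the IgG side held 8.38% of Hox windows against 4.90% of like windows on array 1, and 2.59% against 2.99% on array 2. The low share on the CREM side was thus as marked beside windows of like composition as beside all windows. The higher share on the IgG side was present on array 1, beside windows that were not matched in CpG number from 6 upwards.

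When the median ratio of each class of GC and CpG was removed from every probe, 0.73% of Hox windows lay at -1 or less, against 0.87% of all windows, so that by windows the Hox share was no longer the higher. By genes, 5 Hox genes (15.2%) reached -1, against 9.26% of all genes, which have fewer windows each. These were Hoxd4 (-1.38), Hoxd10 (-1.21), Hoxc11 (-1.11), Hoxa9 (-1.05) and Hoxa6 (-1.02). The lowest window of Hoxd9 came to -0.66, that of Hoxd13 to -0.999 and that of Hoxa13 to -0.84, so none of the 3 genes shown above reached the threshold after this step. On the CREM side 5 Hox genes (15.2%) reached 1 after this step, against 31.0% of all genes, among them Hoxc10 (1.55), Hoxa11 (1.36), Hoxb1 (1.23) and Hoxa2 (1.14).

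CREM is known to bind the cAMP response element, TGACGTCA, and the shorter core TGACG, which reads CGTCA on the other strand. The full element lies in 0 of the 1364 Hox probes, and the core, searched on both strands, in 26. Of the 1233 Hox windows 69 held a core in a probe, which is no larger a share than the 6.45% of all windows, and the full element lay in 0.19% of all windows. Cores lay in 3 of the 17 Hox windows on the CREM side, 7 of the 72 on the IgG side and 59 of the 1144 between (17.6%, 9.72% and 5.16%). A core lay in 10.5% of all windows at 1 or more and in 14.1% of all windows at -1 or less. The 3 on the CREM side were 2 overlapping windows of Hoxb6 and 1 of Hoxc10. The Hoxb6 probes are shown because they are the ones in a highest window that hold the core, which is in capitals here.
Hoxb6 high 1: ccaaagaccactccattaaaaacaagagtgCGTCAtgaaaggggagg
Hoxb6 high 3: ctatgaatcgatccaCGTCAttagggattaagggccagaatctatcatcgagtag

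Of these 2 probes, Hoxb6 high 1 had a ratio of -0.87 and was not well above background in the IgG precipitate. Hoxb6 high 3 had a ratio of 1.00. The Hoxc10 core lay in the region at chr15:102796181-102797125, not in the window whose sequences are shown. Its probe had a ratio of -0.16, so the core probe itself was towards CREM in Hoxb6 high 3 only. Probes cover only part of the DNA, and no match says only that these letters are not in these probes.

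No probe that could be placed in a Hox promoter reached the threshold on the CREM side. RefSeq promoter sequences (GRCm38.p6) were matched for 18 of the 33 genes, and 22 probes of 13 genes lay in them. These probes were of Hoxa, Hoxb and Hoxd genes, so the promoters of the Hoxc genes, Hoxc10 included, were not covered. Their median log2 ratio was -0.37, against -0.28 for all probes in RefSeq promoters. On array 1 the 19 Hox probes had a median of -0.44, against -0.31 for all its promoter probes. On array 2 the 3 Hox probes had a median of -0.29, against -0.25. Of the 22 Hox probes 0 lay at 1 or more, against 11.5% of all promoter probes, and 6 (27.3%) lay at -1 or less, against 22.9%. The 6 probes lay in the promoters of Hoxa5 (-2.02), Hoxd13 (-1.95 and -1.72), Hoxd1 (-1.42 and -1.42) and Hoxd11 (-1.26). The highest promoter probe was also of Hoxd11, at 0.89. Hoxd13 is shown because 2 probes of its lowest window, with centres at -117.5 and -9.5 bases from the start, lie in its promoter. The 250 bases before its start, chr2:74667975-74668224 on the plus strand of GRCm38.p6, hold 31 CG, in capitals, and 74.4% GC.
Hoxd13 promoter: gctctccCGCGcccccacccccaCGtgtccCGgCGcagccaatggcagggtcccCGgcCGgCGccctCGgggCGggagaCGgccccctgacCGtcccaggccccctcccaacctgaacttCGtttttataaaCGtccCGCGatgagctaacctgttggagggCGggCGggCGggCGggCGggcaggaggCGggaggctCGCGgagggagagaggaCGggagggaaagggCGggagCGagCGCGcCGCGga

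Neither the element nor its core is in these letters. Among the 20 RefSeq promoters of Hox genes that were searched, 0 held TGACGTCA and 6 held the core, against 1.80% and 20.9% of 32544 promoters of the same length.

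Genes that lie beside the clusters or work with Hox proteins were counted in the same way. The lists were chosen with earlier results of these data known. Of 10 genes flanking the clusters, 3 (30.0%) were called towards CREM and 7 (70.0%) towards IgG, against 34.5% and 33.7% of all genes. The highest were Atp5g1 (1.71), a subunit of mitochondrial ATP synthase beside Hoxb, and Lnpk (1.505), an endoplasmic reticulum gene beside Hoxd. The lowest were Lnpk (-1.85) and Evx1 (-1.78), a homeobox gene beside Hoxa. Among the flanks, Atp5g1 thus had a CREM-side window as high as the highest of Hoxc10 (1.68), and that of Lnpk lay below it. The part of dim IgG probes in these flanking windows is not given here. Of 15 genes for the TALE homeodomain partners of Hox proteins and the ParaHox genes, 2 (13.3%) were called towards CREM and 8 (53.3%) towards IgG. These 2 were Pbx4 (1.74), a partner of Hox proteins known from the testis, and Gsx1 (1.01). The lowest were Gsx1 (-2.04) and Pbx3 (-1.84).

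The chromatin regulators of Hox clusters had a larger share of CREM-side calls than the Hox genes themselves. Of 24 Polycomb genes, 8 (33.3%) were called towards CREM and 16 (66.7%) towards IgG. The highest were Phc1 (2.62) and Cbx8 (2.45), both of the complex that ubiquitinates histone H2A, and the lowest was Jarid2 (-2.40), which works with the H3K27 methyltransferase complex. Of 9 genes of the opposing Trithorax group and the H3K27 demethylases, 4 were called towards CREM and 6 towards IgG. Kdm6b (1.73), a demethylase, and Kmt2b (1.42), a methyltransferase, were the highest, and Wdr5 (-1.70) and Kdm6a (-1.59) the lowest. The CREM-side shares of both lists, at 33.3% and 44.4%, lay near or above that of all genes (34.5%). Their IgG-side shares, 66.7% in each, lay above that of all genes (33.7%).

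Other developmental genes also had larger shares on the IgG side than on the CREM side. All genes stood at 34.5% towards CREM and 33.7% towards IgG. Of 88 Sox, Pax, Fox, Tbx, Lhx and sine oculis homeobox genes, 21 (23.9%) were called towards CREM and 64 (72.7%) towards IgG. Sox12 (2.25) and Lhx8 (2.23) were the highest, and Foxd2 (-2.73) and Foxd3 (-2.67) the lowest. Of 61 Wnt, Fgf, Bmp and Gdf genes, which encode secreted signals, 10 (16.4%) were called towards CREM and 40 (65.6%) towards IgG. Wnt5b (1.94) and Fgf14 (1.88) were the highest, and Bmp4 (-3.56) and Wnt5b (-2.56) the lowest. By windows these lists had 2.14% and 1.27% towards CREM and 9.25% and 8.17% towards IgG, against 1.38% and 5.84% for Hox. The Hox shares lay near those of both lists on the CREM side and below them on the IgG side, and these differences were not tested. Olfactory receptors, a large family that is poor in GC, had few calls on both sides: of 795 genes, 149 (18.7%) were called towards CREM and 84 (10.6%) towards IgG. Olfr16 (2.25) and Olfr215 (2.15) were the highest, and Olfr722 (-1.72) and Olfr1367 (-1.66) the lowest. Their windows had a mean GC of 36.5%, against 43.5% in the Hox windows.

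**Figure D5:**
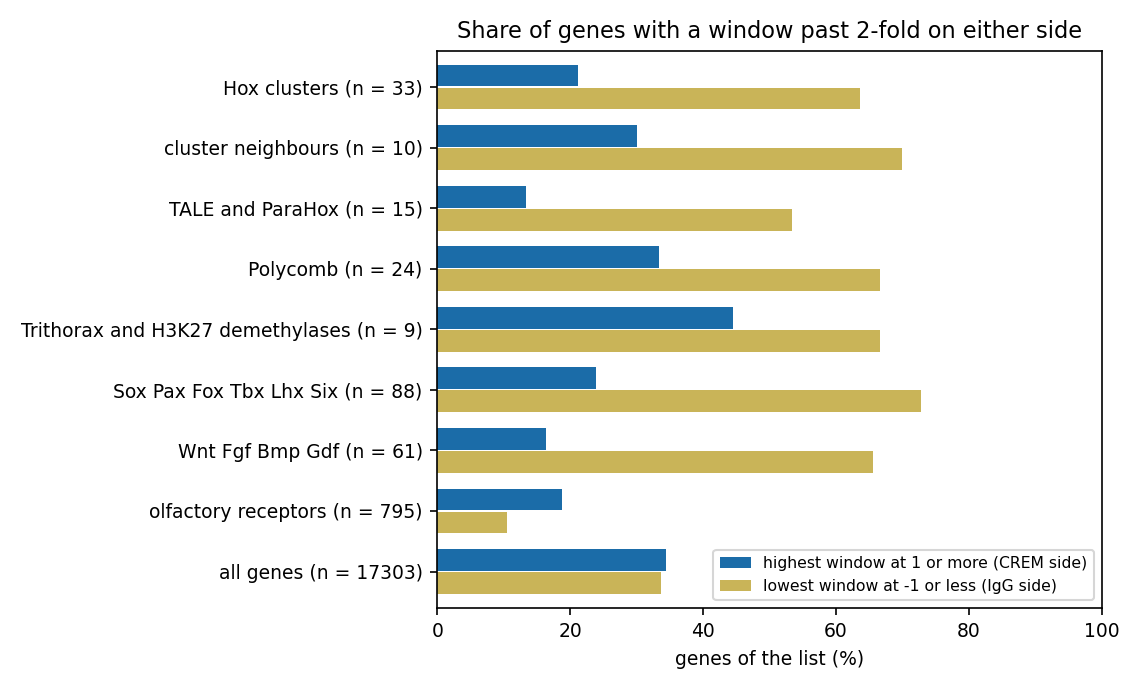
Share of genes (%) with a window at 1 or more (CREM side, blue) and at -1 or less (IgG side, yellow) in the Hox genes, in each comparison list and in all genes, with the number of genes measured beside each name. The Hox genes stand at 21.2% and 63.6%, near the other developmental lists, and all genes stand at 34.5% and 33.7%.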

How the data were processed

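The members and the comparison lists were chosen with earlier results of these data known. Scanning was done with Agilent Feature Extraction 10.7.1.1 and positions are those of mouse build mm9, per the file headers. The deposited scanner files hold intensity for the 2 dyes: raw spot and background brightness, and a processed signal from which background was subtracted and in which the dyes were scaled linearly. Log10 ratios of the processed signals are deposited too, per the file headers; they were not used, since they could not be recomputed for 2444 probes of array 1 and 2420 of array 2. Log2 ratios make up the authors' deposited value table, and mean signal minus median background with limma's loess returned them (correlation of 1, largest difference 5e-08). R 2.10.1 and limma are named in the submitters' processing notes. Flags for outlier, saturated and dim spots are other deposited columns, per the file headers.

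From these, log2 of processed Cy5 (CREM) over Cy3 (IgG) was computed, with each array's median probe set to 0 and no loess. Left out were control and outlier spots, probes with no position and probes dim in both dyes. Every Hox gene is reported with its highest and lowest window, and single signals are given for the 2 highest and 2 lowest windows of each cluster and every Hox gene on the CREM side. The single values of 1 Hox gene and 1 list member are not reported here, though both are counted. Old gene names were updated by RefSeq synonyms (2630 of 17832 names). Tools were Python 3.11.15, pandas 2.3.3, R 4.3.3 and limma 3.58.1. Alternatives were normexp (offset 50), loess, the authors' values, no centring, other filters, windows, gaps and thresholds, and removal of GC trends in classes of 2% GC, or of 4% GC with CpG number. In classes by CpG number, 6 or more CpG formed 1 class. The scripts were tested on simulated data. Exons and introns are not stated, since no mm9 annotation was used here.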

Additional observations from a re-analysis of the deposited data

How the results depend on the processing

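Thresholds of 1.5 and 0.8 gave 1 and 12 Hox genes on the CREM side (14.1% and 47.6% of all genes). On the IgG side 1.5 gave 8 Hox genes (13.6% of all genes). Normexp background correction gave 2 Hox genes on the CREM side (16.2% of all genes), of which Hoxc10 was shared with the 7 and Hoxb13 was not, and 1 on the IgG side, Hoxa13 (3.70% of all genes). It also gave a median lowest window of -0.53. On the CREM and IgG sides lay 0.41% and 0.16% of Hox windows, against 2.43% and 0.34% of all windows. The difference from windows of like composition on the IgG side was -0.053 percentage points, against 1.78 in the values reported. Within-array loess gave 4 genes on the CREM side (31.6% of all genes). The authors' values gave 1 (17.3% of all genes), with a median lowest window of -0.92. With these values 0.49% and 3.73% of Hox windows lay on the CREM and IgG sides, against 2.91% and 2.65% of all windows. Probes above background in both channels gave 1 gene (20.9% of all genes) and 0.53% of Hox windows (4.57% of all windows) on the CREM side. No background filter gave 7.53% of Hox windows on the IgG side (5.01% of all windows). Windows of 5 probes gave 2 genes and 11 genes (19.8% and 17.7% of all genes) and medians of 0.39 and -0.86. They gave 0.70% and 3.91% of Hox windows on the 2 sides, against 4.78% and 3.38% of all windows. Removal of the GC trend gave 4 and 11 genes (30.8% and 12.6% of all genes) and a median lowest window of -0.89. On the IgG side it gave 1.78% of Hox windows, against 1.25% of all windows. Removal of GC and CpG classes gave 5 genes on the IgG side (9.26% of all genes), a median of -0.82 and 0.73% of Hox windows (0.87% of all windows). The cause of these moves was not tested. Relative to the background, the IgG side turned round in 2 settings: under normexp, as given, and by windows after removal of GC and CpG classes (0.73% of Hox windows, against 0.87% of all windows).

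Of the 21 genes on the IgG side, 16 remained in the authors' values, 20 with probes above background in both channels, 10 without the GC trend and 4 without GC and CpG classes. The share of Hox genes on the CREM side lay below that of all genes in each setting, and on the IgG side above it in each except normexp (3.03%, against 3.70%). The part of GC content and of dim signals was not tested. No paired analysis was possible because each array is 1 sample and no test was run. One hybridisation per probe set, dim IgG signals on the CREM side and GC-rich probes on the IgG side limit all counts.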
